A study of Mus musculus with 15 samples.

Results

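The cells described here are 730 microglia of an Atg7-deleted mouse line that stood highest in their library for immediate-early transcripts. They were chosen from 7298 eligible barcodes, of 9840 in the cKO library and 16473 in both single-cell libraries of the series. A barcode stands for 1 droplet and was eligible with at least 500 detected genes, at most 10% mitochondrial UMIs and at least 2000 UMIs (unique molecular identifiers, each counting 1 captured transcript). Members are the top 10% of eligible barcodes by the summed UMIs of Fos, Fosb and Egr1 per 10000 UMIs, called the score below. The other 6568 eligible cKO barcodes, called the others, are what they were set against. These 3 genes chose the members, so they appear in no result.

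The cKO mice carried ATG7FF and Cx3cr1CreER, and the control mice carried ATG7FF without Cre, so both had the floxed gene. All were C57BL/6. Tamoxifen, 1.5 mg, was given at the age of 2 months, and brains were taken 6 months afterwards, at 8 months. Forebrains were broken up with a Dounce homogenizer, microglia were enriched on Percoll and sorted as CD11b-high and CD45-low, and 4 cKO or 3 control forebrains went into 1 pooled library each (10x Genomics 3' v3). The inducible Cre is placed at the Cx3cr1 locus and can act in any cell that uses this gene. The series also holds bulk forebrain libraries of 5xFAD mice, which have no cell barcodes and were not used. With 1 library per genotype and no map from cells to animals, no comparison here has replicates and none was tested. Levels are UMIs per 1000000 UMIs of a set of barcodes (CPM), and each ratio of CPM carries a 95% interval from the counts alone, which leaves out variation between cells and between mice.

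Immediate-early genes are switched on within minutes of a stimulus from factors already present in the cell, without new protein synthesis. Their products include the AP-1 and Egr transcription factors. A further list of response genes, called delayed early here, includes phosphatases, RNA-destabilising proteins and Klf factors. The name is a label only, since the order in which these genes respond was not measured. Chaperones belong to separate programmes: those of the endoplasmic reticulum (ER) fold secreted and membrane proteins and answer to the unfolded protein response, whereas the cytosolic heat shock proteins answer to heat shock factors.

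The score ran from 24.6 to 125 in members, with a median of 34.2, against a median of 2.54 in the others. The lowest members were at 24.64, 24.71 and 24.71, and the highest of the others at 24.60, 24.59 and 24.56, so the boundary lies within a continuous range. Among eligible cKO barcodes, 33.4% had a score of 0. In the control library 511 of 6633 barcodes were eligible, and 65.2% of these, 333 barcodes, lay at or above the lowest member's score. The median score was 3.42 in cKO barcodes and 32.5 in control barcodes. Members are therefore the high end of the cKO library only, at scores that were common in the control library.

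**Figure D1:**
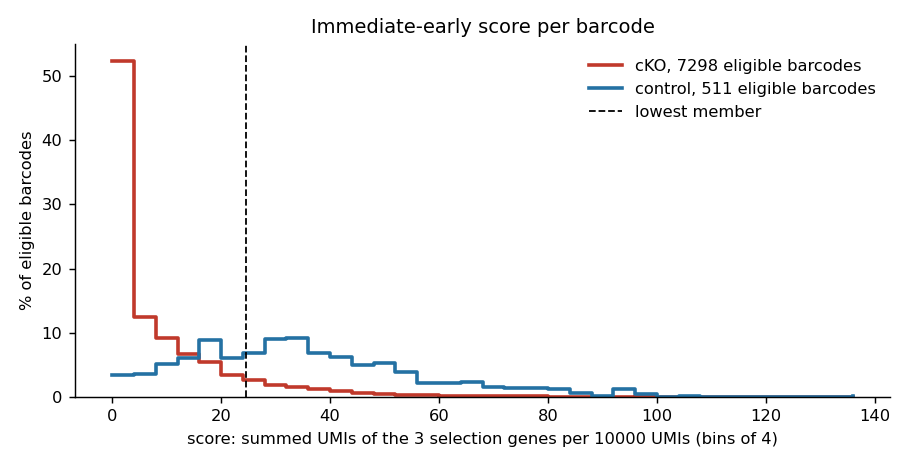
Immediate-early score per barcode on the x axis (UMIs of the 3 selection genes per 10000 UMIs) and percent of eligible barcodes on the y axis, for 7298 cKO and 511 control barcodes, with a dashed line at the lowest member. Most cKO barcodes lie in the lowest bin, whereas 65.2% of control barcodes lie at or above the line.

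Members were microglia by their markers and resembled the others in depth. Median UMIs were 4721 in members and 4912 in the others, median detected genes 2142.5 and 2197, and median mitochondrial share 1.08% in members and 0.955% in the others. All 16 microglial markers were measured, and their summed level was 50758 CPM in members against 51484 CPM in the others. P2ry12, a purinergic receptor of homeostatic microglia, stood at 3647 CPM in members and 3521 CPM in the others. Most markers of other cells were near 0, and several lists rested on 1 gene or a few. The 8 monocyte markers summed to 5.23 CPM in members and 5.36 CPM in the others, and the 8 neutrophil markers to 1.93 and 1.25 CPM. Cd3e, Cd8a, Ly6c2, Cd163, Lyve1, S100a8, Gfap and Cldn5 had no UMI in members. The list of astrocyte markers reached 191 CPM in members and 195 CPM in the others, of which Slc1a3 alone gave 170 and 174 CPM. Border macrophage markers summed to 223 CPM in members and 234 CPM in the others, with 211 and 219 CPM from Stab1. Oligodendrocyte markers summed to 109 CPM in members and 123 CPM in the others, nearly all of it from Cnp, Mag and Mbp, while Mog, Mobp and Cldn11 were at 0 in members. For endothelial and pericyte markers the sums were 47.9 and 54.3 CPM, with Pecam1 at 43.5 and 50.8 CPM, and for lymphocyte markers 41.0 and 41.5 CPM, with Cd79b at 40.8 and 41.3 CPM. Neuronal markers gave 15.4 CPM in members and 12.7 CPM in the others, dendritic cell markers 9.64 and 6.20 CPM and erythrocyte markers 0.275 and 0.724 CPM. The dendritic list had a ratio of 1.56 (1.06 to 2.23), from 35 UMIs in members. Of members 75.3%, and of the others 80.2%, held 2 or more UMIs from these lists, leaving out the dendritic one. The source of these UMIs was not tested. The deletion itself could not be checked: 3' tags need not fall in a deleted exon, and Atg7 gave 72 UMIs in members (19.8 CPM) against 589 UMIs in the others (17.1 CPM) and 11.5 CPM in eligible control barcodes. No eligible barcode occurs in both libraries; 22 barcodes do in all, and 1 member's barcode is also found in the control library, below the limits there.

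Few genes differed by a large factor. Of 6623 genes with at least 20 CPM over eligible barcodes, 27 (0.408%) were at least 1.5-fold higher in members and 8 (0.121%) at least 1.5-fold lower, and 45.1% had a ratio above 1. The balance turned with the setting: 41 were higher and 56 lower for a top 5% of barcodes, and 45 were higher and 60 lower after each barcode was thinned to 2000 UMIs. The median ratio was 0.988, and 90 in 100 genes lay between 0.823 and 1.18. Of the 27 higher genes, 13 belong to the lists of AP-1, Egr and delayed early genes and 1 to a chaperone list.

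Transcription factors of the AP-1 family were higher together with the genes used for selection. Jun, a partner of the Fos proteins, stood at 4257 CPM in members and 2342 CPM in the others, a ratio of 1.82 (1.79 to 1.85). Junb had 1963 CPM in members and 1034 CPM in the others (ratio 1.90, 1.85 to 1.95). Jund had 2101 CPM in members and 1166 CPM in the others (ratio 1.80, 1.76 to 1.85). These 3 partners differed by nearly the same factor. Atf3, a stress-induced member of the wider family, had 74.6 CPM in members and 59.8 CPM in the others (ratio 1.25, 1.10 to 1.42). Maf, a basic leucine zipper factor, had a ratio of 0.930 (0.899 to 0.962). Summed over the 20 listed genes, the list reached 11788 CPM in members and 7713 CPM in the others, a ratio of 1.53 (1.51 to 1.54). Only 7 of the 20 reached 20 CPM. Below that level, Egr3 had 35 UMIs in members and 80 in the others, which is a ratio of 4.16 (2.71 to 6.26), and Egr2 had 35 and 157 UMIs (ratio 2.12, 1.43 to 3.08).

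All 22 measured delayed early genes had ratios above 1, and 10 of them were at least 1.5-fold higher, against 0.408% of all measured genes. The median log2 ratio of the list was 0.50, against -0.02 over all genes. Klf2 (chr8:72319033-72321656, GRCm38), a Krüppel-like transcription factor, was at 277 CPM in members and 96.2 CPM in the others, with the highest ratio of all measured genes, 2.88 (2.68 to 3.09). Its relative Klf4 had 79.6 CPM in members and 30.7 CPM in the others (ratio 2.59, 2.27 to 2.95). Klf6, at 503 and 347 CPM, differed by 1.45. Ier2 (chr8:84661331-84662852), an early nuclear protein, had 315 CPM in members and 123 CPM in the others (ratio 2.57, 2.40 to 2.74). Feedback genes were among the highest. Dusp1, a phosphatase that inactivates MAP kinases, had 350 CPM in members and 148 CPM in the others (ratio 2.37, 2.22 to 2.52). Socs3, which restrains cytokine receptors that signal through STAT3, had 146 CPM in members and 69.6 CPM in the others (ratio 2.10, 1.91 to 2.31). Zfp36, which speeds the decay of cytokine mRNAs, had 1097 CPM in members and 616 CPM in the others (ratio 1.78, 1.72 to 1.84). Btg2, an antiproliferative gene, had 2634 CPM in members and 1471 CPM in the others (ratio 1.79, 1.75 to 1.83). At the low end stood Ier3, with 120 and 118 CPM (ratio 1.01, 0.914 to 1.12), so the list did not shift by 1 common factor. Gm34455, a neighbour of Dusp1 on the same strand (chr17:26467560-26503200), had a ratio of 1.86. The host transcript of miR-142, Mir142hg, had a ratio of 1.66.

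Chaperones went along in the ER and not in the cytosol. The 25 listed ER chaperones and folding enzymes summed to 4217 CPM in members and 3656 CPM in the others, a ratio of 1.15 (1.13 to 1.17). In 4 quartiles of total UMIs, from the shallowest to the deepest, this ratio was 1.14, 1.20, 1.21 and 1.09. Of 23 measured, 17 had ratios above 1, against 45.1% of all measured genes, and the median log2 ratio was 0.15, against -0.02. The 29 listed cytosolic heat shock genes summed to 3592 CPM in members and 3631 CPM in the others, a ratio of 0.989 (0.972 to 1.01). Of 21 measured, 8 had ratios above 1, with a median log2 ratio of -0.01. Chaperonins and mitochondrial chaperones summed to 1735 CPM in members and 1757 CPM in the others (ratio 0.987, 0.962 to 1.01), with 5 of 16 above 1.

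Within the ER list, ratios did not follow abundance. Calr, calreticulin, a calcium-binding lectin chaperone (chr8:84841850-84846934), had 272 CPM in members and 175 CPM in the others (ratio 1.55, 1.45 to 1.66), and it was the only measured chaperone of the 3 lists past 1.5-fold. Its ratio was below that limit for a top 20% of barcodes (1.38) and with at least 4000 UMIs (1.46). The same held with Fos, Fosb or Egr1 alone in the score (1.48, 1.31 and 1.34). In 4 quartiles of total UMIs, from the shallowest to the deepest, Calr had ratios of 1.82, 1.64, 1.68 and 1.29. Hspa5, the Hsp70 of the ER also called BiP (chr2:34771970-34777547), had 382 CPM in members and 265 CPM in the others (ratio 1.44, 1.36 to 1.53). Pdia6, a protein disulfide isomerase, had 197 CPM in members and 141 CPM in the others (ratio 1.40, 1.29 to 1.51). Sdf2l1, a partner of Hspa5, had 64.2 and 47.3 CPM (ratio 1.36, 1.18 to 1.56). Hsp90b1, the Hsp90 of the ER, had the smaller ratio of 1.20 (1.14 to 1.26) from 497 and 415 CPM. Erp29, a luminal folding factor with the most UMIs of the ER genes named here, had 512 CPM in members and 485 CPM in the others (ratio 1.06, 1.01 to 1.11), and Ppib, a cyclophilin, 353 and 326 CPM (ratio 1.08, 1.02 to 1.15). Sdf2, a relative of Sdf2l1, had 80.7 and 60.9 CPM (ratio 1.33, 1.17 to 1.50). The disulfide isomerases Pdia4 and Pdia3 had ratios of 1.28 and 1.21, and the secreted factors Creld2 and Manf 1.31 and 1.23. Not every gene of the list was higher. Canx, calnexin, the membrane-anchored relative of Calr, had 232 CPM in members and 251 CPM in the others (ratio 0.922, 0.858 to 0.989). Dnajc10, a luminal reductase, and Tmx2 had ratios of 0.785 and 0.711, Selenok 0.989 and Herpud1 1.04. Outside the list, Tmx4, a membrane-bound thioredoxin-like protein of the ER, had 366 CPM in members and 230 CPM in the others (ratio 1.59).

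Single genes of the cytosolic list lay on both sides of 1. Dnajb1, an Hsp40 that works with Hsp70, had 57.6 CPM in members and 41.2 CPM in the others (ratio 1.40, 1.20 to 1.62), and Dnajb4, of the same family, 73.0 and 59.3 CPM (ratio 1.23, 1.08 to 1.40). Ptges3, the Hsp90 co-chaperone p23, had 105 CPM in members and 129 CPM in the others (ratio 0.813, 0.730 to 0.902). The most abundant did not differ to this degree. Hsp90ab1 had 875 CPM in members and 899 CPM in the others (ratio 0.974, 0.939 to 1.01), and Hspa8, the constitutive Hsp70, 629 and 611 CPM (ratio 1.03, 0.986 to 1.08). Hsf1, the heat shock factor, was at 27.0 CPM in members and 34.4 CPM in the others (ratio 0.785, 0.632 to 0.966). The stress-inducible Hspa1a and Hspa1b, at 14 and 1 UMIs in members and 76 and 24 UMIs in the others, were too rare for a comparison, and as near-identical copies their reads may not be told apart.

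**Figure D2:**
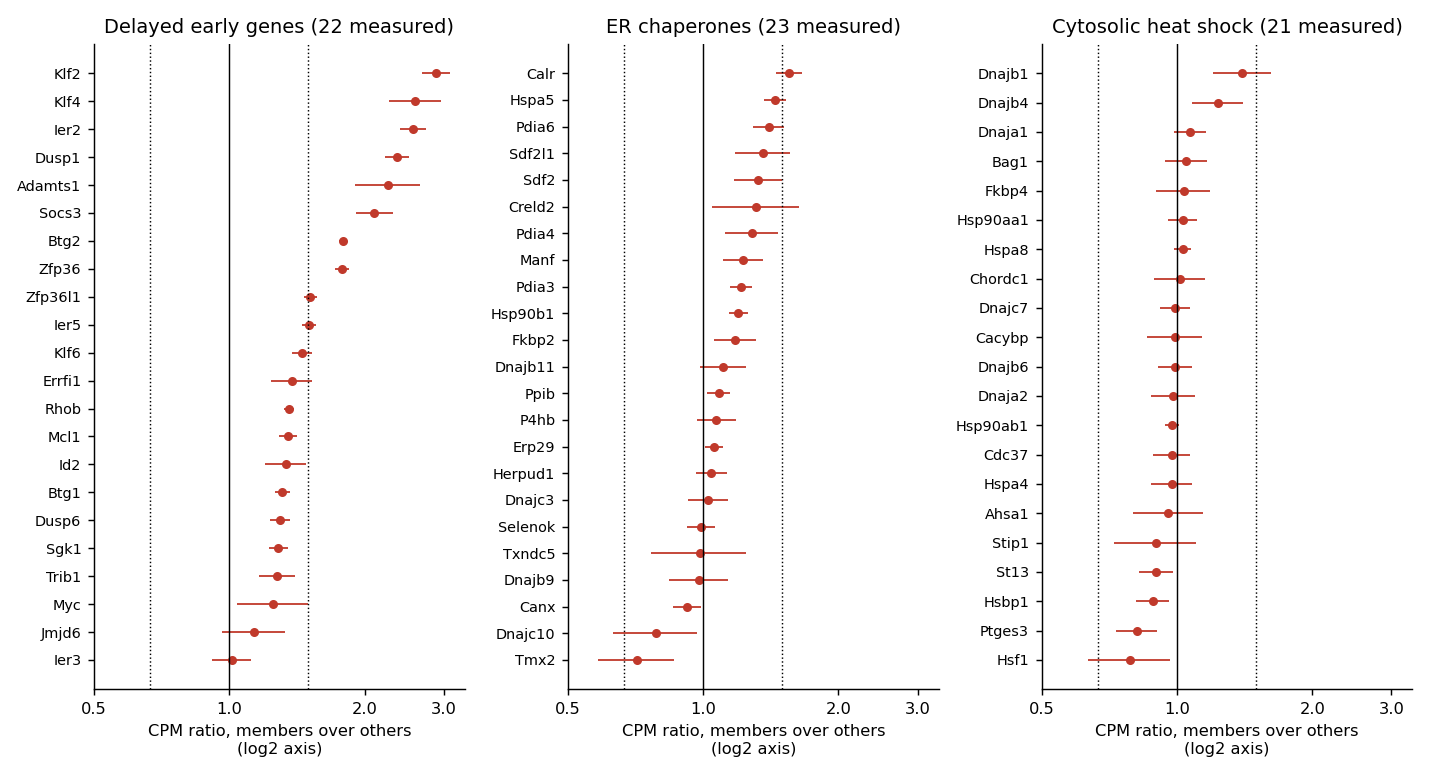
Ratio of CPM, members over others, on a log2 axis for each measured gene of 3 lists, with 95% counting intervals; the solid line marks equality and dotted lines 1.5-fold in each direction. All 22 delayed early genes lie right of 1, ER chaperones spread between 0.711 and 1.55, and cytosolic heat shock genes cluster around 1.

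Promoters of the leading ER chaperones carry the element that the unfolded protein response factors ATF6 and XBP1 use, and their letters are shown beside the early gene Dusp1 for that reason. The windows are RefSeq's, on GRCm38.p6, and run 250 bases up to the start of transcription, 5′ to 3′ on the strand of the gene. Capitals mark the box CCAAT, the second block CCACG, the AP-1 motif TGANTCA and the cyclic AMP response element (CRE) TGACGTCA, on either strand; in Hspa5 a CCAAT and an AP-1 match overlap.
Hspa5, chr2:34771840-34772089, plus strand: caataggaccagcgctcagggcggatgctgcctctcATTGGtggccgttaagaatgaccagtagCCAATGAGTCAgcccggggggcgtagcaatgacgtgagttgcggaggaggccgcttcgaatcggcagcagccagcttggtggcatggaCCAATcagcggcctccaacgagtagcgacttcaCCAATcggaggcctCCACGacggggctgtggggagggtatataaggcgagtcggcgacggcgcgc
Calr, chr8:84846932-84847181, minus strand: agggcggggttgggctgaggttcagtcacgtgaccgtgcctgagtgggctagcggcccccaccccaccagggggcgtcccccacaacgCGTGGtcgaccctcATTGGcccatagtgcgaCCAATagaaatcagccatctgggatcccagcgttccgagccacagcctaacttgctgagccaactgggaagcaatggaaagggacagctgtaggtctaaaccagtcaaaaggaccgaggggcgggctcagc
Pdia6, chr12:17266339-17266588, plus strand: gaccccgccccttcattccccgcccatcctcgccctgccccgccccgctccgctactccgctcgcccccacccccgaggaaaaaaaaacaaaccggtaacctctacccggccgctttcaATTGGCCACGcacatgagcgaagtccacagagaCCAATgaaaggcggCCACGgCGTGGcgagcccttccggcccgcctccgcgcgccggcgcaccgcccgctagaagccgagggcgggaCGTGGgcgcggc
Dusp1, chr17:26508473-26508722, minus strand: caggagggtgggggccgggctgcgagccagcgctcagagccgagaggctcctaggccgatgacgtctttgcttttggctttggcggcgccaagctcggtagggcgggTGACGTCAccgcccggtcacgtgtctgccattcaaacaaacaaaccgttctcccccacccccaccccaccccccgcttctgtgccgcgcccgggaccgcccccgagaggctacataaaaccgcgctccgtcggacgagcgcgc

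The full ER stress element, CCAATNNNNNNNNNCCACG on either strand, starts 65 bases before the start of Hspa5, 162 before that of Calr, where it is read on the opposite strand, and 98 before that of Pdia6. Over windows that reach 50 bases past the start, it occurred in 7 of the 21 measured ER chaperones with a window (33.3%), in none of 16 cytosolic heat shock genes, in none of 19 delayed early genes in 0.169% of measured genes and in 0.137% of 27025 genes with a window. The 7 were Calr, Hspa5, Pdia6, Creld2, Hsp90b1, Dnajc3 and Canx, with ratios of 1.55, 1.44, 1.40, 1.31, 1.20, 1.03 and 0.922. Measured ER chaperones with a window but without the element had ratios from 1.36 (Sdf2l1) down to 0.711 (Tmx2). Whether the element goes with the ratio was not tested. The CRE occurred in 3 of 19 delayed early genes (15.8%), namely Dusp1, Btg2 and Errfi1, against 3.78% of the 5313 measured genes with a window and 2.03% of all genes. The AP-1 motif occurred in 1 of the 19 (5.26%), against 5.65% of measured and 8.97% of all genes. TATAAA, also searched, occurred in 5 of the 19 (26.3%), against 8.53% of measured and 15.7% of all genes. A match is a run of letters and says nothing of binding.

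Regulators of the unfolded protein response were mixed. The list summed to 1776 CPM in members and 1632 CPM in the others, a ratio of 1.09 (1.06 to 1.12), with 9 of 13 measured genes above 1. Ppp1r15a, a phosphatase subunit that reverses the translational block and also an early response gene, led with 200 CPM in members and 121 CPM in the others (ratio 1.66, 1.53 to 1.79). Xbp1 and Atf4, transcription factors of separate branches of the response, both had a ratio of 1.31, with 91.2 and 69.8 CPM for Xbp1 and 173 and 132 CPM for Atf4. Ddit3, the death-associated factor CHOP, was at 33.3 CPM in members and 31.1 CPM in the others (ratio 1.07, 0.881 to 1.29). Degradation genes lay near 1, among them Derl1 at 0.939 and Sel1l at 0.882.

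Along the whole score, ER chaperones climbed late and the cytosolic list stayed flat. The ER list was at 3570 CPM in barcodes at score 0, then at 3593, 3655 and 3843 CPM in 3 bands of the remaining others, and at 4016 and 4433 CPM in the 365 members with lower and the 365 with higher scores. Cytosolic heat shock genes kept between 3581 and 3675 CPM over the same bands. Calr went along most steeply, with 162, 165, 175, 204, 227 and 321 CPM, and Hspa5 had 235, 248, 267, 324, 351 and 415 CPM. Delayed early genes had already gained at low scores, from 6407 CPM at score 0 to 7244, 9033 and 10399 CPM in the others and 11743 and 13321 CPM in the lower- and higher-scoring members.

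**Figure D3:**
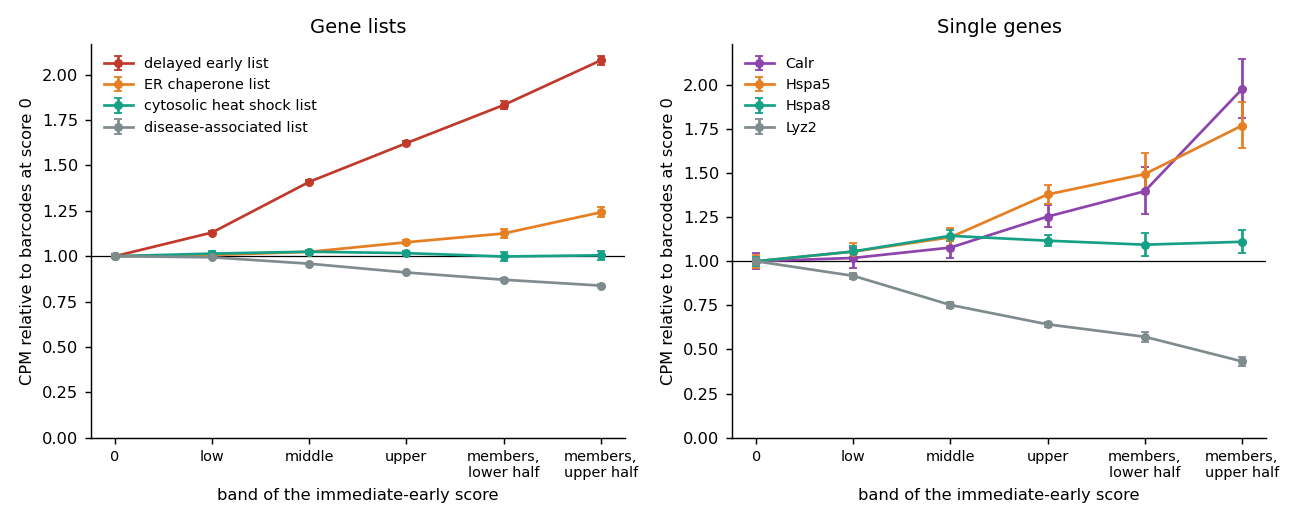
CPM relative to barcodes at score 0 (y axis) in 6 bands of the immediate-early score (x axis, low to high), for gene lists at left and single genes at right, with 95% counting intervals. Delayed early genes reach 2.08 times and ER chaperones 1.24 times the level at score 0, cytosolic heat shock genes stay at 1.00 times, and Lyz2 ends at 0.433 times.

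Barcode by barcode, most members had ER chaperones at the level of the others, and a minority stood far above. Per 10000 UMIs, the median was 36.7 ER chaperone UMIs in members and 34.5 in the others, and the lower quartiles were 28.7 and 28.0. The 95th percentiles were 86.2 in members and 58.5 in the others. Cytosolic heat shock UMIs had medians of 34.4 and 34.7 and 95th percentiles of 55.7 and 56.3. Of the eligible barcodes in the top 10% for the ER chaperone level (52.7 UMIs per 10000 or more), 147 were members, 20.1% of members (exact 95% interval 17.3 to 23.2), and 583 were others, 8.88% of the others (8.20 to 9.59). These intervals take each barcode as independent and leave out variation between the pooled mice. The difference was not tested, and cells could not be assigned to mice. At a top 5% the shares were 15.2% of members and 3.87% of the others, and at a top 20% they were 30.4% and 18.8%. In 4 quartiles of total UMIs, 18.8, 25.1, 21.4 and 14.6% of members and 11.4, 9.11, 6.61 and 8.50% of the others passed the 10% limit. Leaving Hspa5, Calr, Hsp90b1 or Pdia6 out of the level gave 18.5 to 20.5% of members and 8.83 to 9.06% of the others. For the cytosolic list the same limit held 9.18% of members and 10.1% of the others. In the control library 438 of 511 eligible barcodes (85.7%) lay at or above the ER limit of 52.7. The median over all eligible control barcodes was 74.3 ER chaperone UMIs per 10000.

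**Figure D4:**
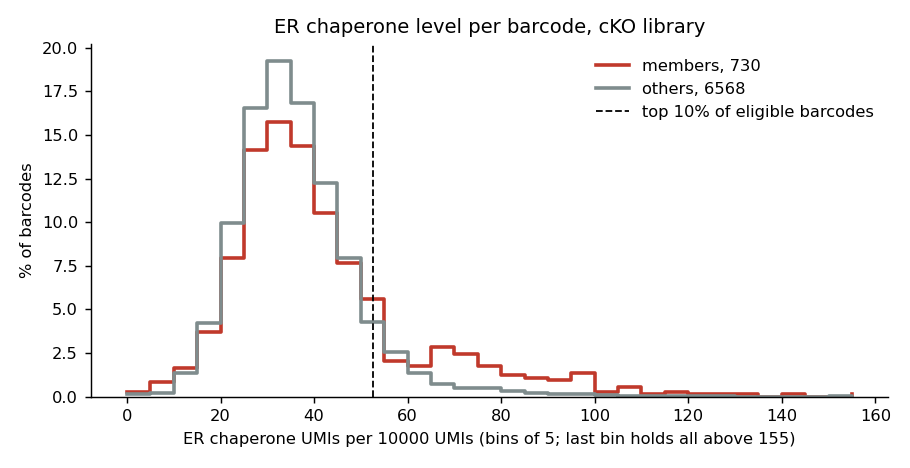
ER chaperone UMIs per 10000 UMIs on the x axis and percent of barcodes on the y axis, for 730 members and 6568 others, with a dashed line at the top 10% of eligible barcodes. The main peaks coincide, and members have a heavier tail beyond the line, where 20.1% of members and 8.88% of the others lie.

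Members and others were then split at this limit, a division made after these values were seen. It uses the ER level itself, so ER values on either side follow from it and are given only to describe the sets. The 147 members and 583 others above it had 7499 and 6617 CPM of ER chaperones, and the 583 members and 5985 others below it 3406 and 3379 CPM. Early genes differed below the limit too: there, delayed early genes differed 1.52-fold (1.50 to 1.53) and Klf2 2.86-fold (2.64 to 3.09). Within members, the 147 with high ER chaperones had 1.15 times the delayed early level of the other 583, and 0.971 times their Klf2 (0.827 to 1.14).

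Genes outside the choice and the split lay at varied distances from the control library. Lyz2, lysozyme, was at 359 CPM in them, against 898 CPM in the other 583 members (ratio 0.399, 0.350 to 0.454). In the others, barcodes with high ER chaperones had 885 CPM and the rest 1368 CPM, and eligible control barcodes had 260 CPM. Blvrb, biliverdin reductase B, was at 103 CPM in the 147, 210 CPM in the other members, 210 and 248 CPM in the others with high and lower ER chaperones, and 96.8 CPM in control barcodes. For these 2 genes the 147 lay nearest to the control library among the 4 cKO sets. The same held for the NRF2 and disease-associated lists, Txnrd1, Sqstm1 and Gstm1, the last with 5 UMIs in the 147. The NRF2 list had 5256 CPM in the 147, 6089 CPM in the other members and 4752 CPM in control barcodes. Cdkn1a, Cst7 and the homeostatic list were nearest to control in another set. Apoe, a lipid carrier, did not follow: it was at 417 CPM in the 147, 531 CPM in the other members, 323 and 559 CPM in the others with high and lower ER chaperones, and 349 CPM in control barcodes. The histone list, at 6013 CPM in the 147 and 6184 CPM in the other members, 5412 and 4819 CPM in the others and 4568 CPM in control barcodes, was nearest to control in the others with lower ER chaperones. Cx3cr1, the fractalkine receptor gene that holds the Cre insertion, was far from control in every set. It had 2960 CPM in the 147, 2768 CPM in the other members, 2846 and 2815 CPM in the others with high and lower ER chaperones, and 5136 CPM in control barcodes. All members together had 0.546 times the control level (0.530 to 0.563).

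High ER chaperones went with different company inside and outside the members. Cdkn1a, the cell cycle inhibitor p21, was at 83.4 CPM in the 147 members with high ER chaperones and 201 CPM in the 583 others with high ER chaperones, a ratio of 0.414 (0.312 to 0.540). The other members had 89.0 CPM of Cdkn1a, the remaining others 68.6 CPM and control barcodes 31.5 CPM. Xbp1 was at 178 CPM in the 147 members, 114 CPM in the others with high ER chaperones, 69.7 CPM in the other members and 65.7 CPM in the remaining others. Hspa8 differed less, at 566 CPM in the 147 members and 653 CPM in the others with high ER chaperones, a ratio of 0.866 (0.776 to 0.964). It had 644 and 607 CPM in the other members and remaining others. Depth was alike, with median UMIs of 4672, 4640, 4741 and 4935 in these 4 sets, whereas control barcodes had 2423.

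**Figure D5:**
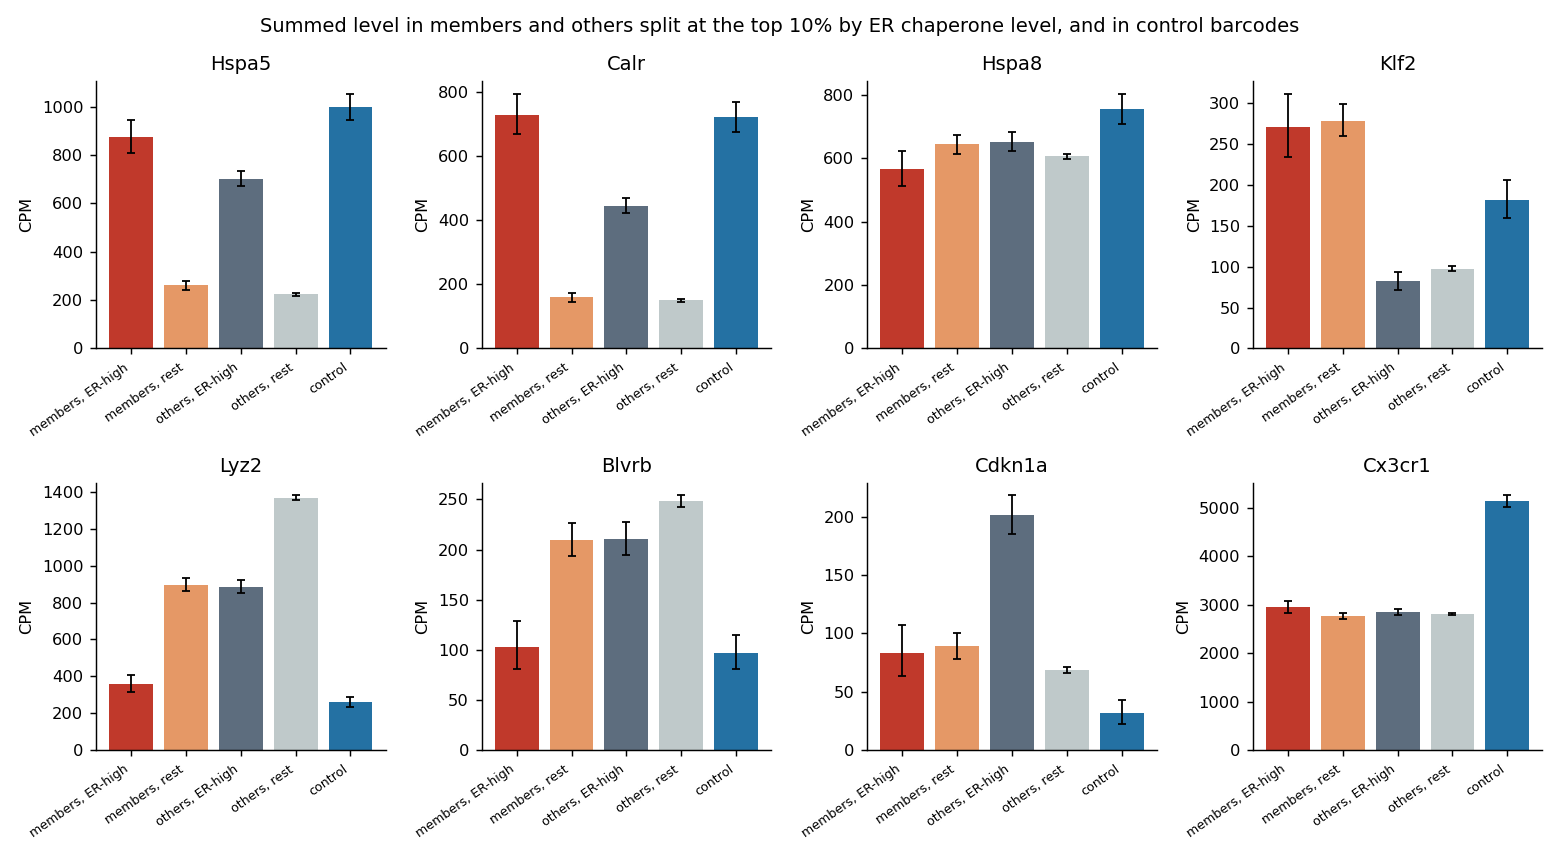
Summed CPM with 95% counting intervals (y axis, from 0) of 8 genes in members and others, each split at the top 10% by ER chaperone level, and in 511 eligible control barcodes. Hspa5 and Calr were used by the split. Of the 4 cKO sets, members with high ER chaperones lie nearest to control for Lyz2 (359 against 260 CPM in control) and Blvrb (103 against 96.8 CPM). Cdkn1a is highest in others with high ER chaperones, and Cx3cr1 lies between 2768 and 2960 CPM in all 4 cKO sets, below control.

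The lists of disease-associated and antioxidant genes were lower in members. The 8 genes past 1.5-fold were Lyz2, Cst7, Pla2g7, Angptl7, Stmn1, Tmem205, Ttr and Enpp2, the first 2 from the disease-associated list. Of 18 measured disease-associated genes 1 had a ratio above 1, and the list summed to 22178 CPM in members and 25149 CPM in the others (ratio 0.882, 0.876 to 0.888). Lyz2 led in size, with 791 CPM in members and 1326 CPM in the others (ratio 0.596, 0.574 to 0.619). Cst7, cystatin F, had 13.5 and 23.3 CPM (ratio 0.580, 0.426 to 0.775), Cd63 had a ratio of 0.753, and Apoe, at 508 and 539 CPM, one of 0.944 (0.899 to 0.990). Along the score Lyz2 had 1567 CPM at score 0 and 678 CPM in the 365 highest-scoring members. Of 16 measured targets of NRF2, 2 were above 1, and the list had a ratio of 0.952 (0.939 to 0.966). Blvrb stood at 188 CPM in members and 245 CPM in the others (ratio 0.769, 0.710 to 0.831), Txnrd1, thioredoxin reductase, at 63.9 and 85.1 CPM (ratio 0.751, 0.654 to 0.859), and Prdx1, a peroxiredoxin, at 253 and 324 CPM (ratio 0.779, 0.728 to 0.834). The homeostatic list summed to 84456 CPM in members and 87240 CPM in the others (ratio 0.968), with 13 of 22 genes above 1. Cst3, its most abundant gene, gave 44308 and 48344 CPM of these sums and had the lowest ratio of the list, 0.917 (0.912 to 0.921). The median ratio of the list was 1.02, so its summed ratio below 1 does not describe most of its genes. Cx3cr1, at 2806 and 2818 CPM, had a ratio of 0.996 (0.976 to 1.02).

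Inflammatory genes differed gene by gene. Tnf, a cytokine, had 41.6 CPM in members and 29.0 CPM in the others (ratio 1.44, 1.20 to 1.71), and Nfkbiz, a regulator of NF-kB, 84.8 and 56.2 CPM (ratio 1.51, 1.33 to 1.70). Nfkbia, the NF-kB inhibitor, had a ratio of 1.24, while Rela, an NF-kB subunit, had 0.822. Of 13 measured genes of this list 8 were above 1, with a summed ratio of 1.11 (1.07 to 1.14). Among chemokines, Ccl2 and Ccl12 had ratios of 1.45 (1.23 to 1.70) and 1.43 (1.32 to 1.55). Ccl3 and Ccl4 were closer to 1, at 1.08 (0.996 to 1.18) and 1.20 (1.09 to 1.31). In the top 10% for their sum were 82 members (11.2%), near the 10% of all eligible barcodes. Cxcl16 had 39.4 CPM in members and 54.9 CPM in the others (ratio 0.717, 0.601 to 0.850).

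Among arrest genes and histones, single genes stood out from lists that were otherwise near 1. The p53 and arrest list had a summed ratio of 1.57, which came from Btg2, already given with the delayed early genes; its median log2 ratio was -0.09. Cdkn1a had 87.9 CPM in members and 80.0 CPM in the others (ratio 1.10, 0.975 to 1.23), and Cdkn1b, the inhibitor p27, 143 and 104 CPM (ratio 1.38, 1.25 to 1.51). Bax, which promotes cell death, had a ratio of 0.874. Of 10 measured histone genes, H3f3b, which encodes the replacement histone H3.3, stood out with 4093 CPM in members and 2941 CPM in the others (ratio 1.39, 1.37 to 1.42). Hist1h1c and Hist1h1e, linker histones, had ratios of 1.30 and 1.15, whereas H3f3a, which encodes the same protein as H3f3b, had 0.995 (0.948 to 1.04).

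Of the remaining lists, ribosomal proteins had a summed ratio of 0.941 with 6 of 32 above 1, respiratory chain genes 0.938 with 3 of 17, lysosomal genes 0.928 with 8 of 22, autophagy genes 0.918 with 5 of 20, proteasome subunits 0.969 with 7 of 22, MHC genes 0.919 with 4 of 10 and interferon genes 0.979 with 3 of 5. Outside the lists, S1pr1, a sphingosine phosphate receptor, had a ratio of 0.721 (69.7 and 96.6 CPM). Gltp, which transfers glycolipids, had 0.733 and Rapsn 0.701. Med28, a Mediator subunit, had 0.735, and 2610507B11Rik 0.725.

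Set beside the control library, members had ER chaperones well below it and early genes on either side of it. The AP-1 and Egr list was at 11788 CPM in members, 7713 CPM in the others and 11338 CPM in eligible control barcodes. The delayed early list was at 12505, 8073 and 11081 CPM in the same order. Ratios of members over control barcodes were 0.898 for Jun (0.872 to 0.925) and 1.08 for Dusp1 (0.963 to 1.20), but 1.33 for Junb (1.26 to 1.40), 1.45 for Zfp36 (1.35 to 1.56) and 1.52 for Klf2 (1.32 to 1.76). The ER list stood at 4217 CPM in members, 3656 CPM in the others and 7659 CPM in control barcodes. Hspa5 had 382, 265 and 998 CPM. Lyz2, at 791, 1326 and 260 CPM, lay between. Eligible control barcodes are the deepest of a shallower library, and the genotype cannot be told apart from the library.

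The same choice in the control library gave 51 of 511 barcodes, whose scores began at 65.4. ER chaperones had a ratio of 1.02 there (0.958 to 1.09; 7822 and 7641 CPM), cytosolic heat shock genes 0.900 (0.820 to 0.986), AP-1 and Egr genes 1.24 (1.18 to 1.31) and delayed early genes 1.15 (1.09 to 1.21). With a floor of 1000 UMIs in both libraries, the ER ratio was 1.13 (1.11 to 1.15) in the cKO library and 0.953 (0.928 to 0.979) in the control library. At that floor Calr had ratios of 1.57 and 0.984, Hspa5 1.49 and 1.02, Klf2 3.05 and 1.95, and Lyz2 0.561 and 1.14, the cKO library first. Early genes were higher in the high-score barcodes of both libraries, and the ER list in those of the cKO library; with 1 library each, the difference between libraries was not tested.

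Groups of equal size chosen in the cKO library by other genes had a weaker form of this pattern or ratios below 1. The 730 barcodes highest in Ccl3 and Ccl4 had an ER ratio of 1.03 (1.01 to 1.05) over the rest, those highest in Lyz2 0.871 (0.855 to 0.887), and those highest in Apoe 0.926 (0.910 to 0.943). Their AP-1 and Egr ratios were 1.06, 0.737 and 0.886. Only 23 members (3.15%) were also among the 730 highest in Lyz2 and 62 (8.49%) among the 730 highest in Apoe. Each such group is 10% of all eligible barcodes. Of 1223 eligible barcodes with a Cdkn1a UMI, 127 were members, which is 17.4% of members and 10.4% of those barcodes. Members make up 10% of all eligible barcodes, so the last share is near that of all.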

How the data were processed

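The authors deposited raw UMI counts for each library as a matrix of genes by barcodes. Cell Ranger 6.1.0 made the matrices, per the file headers; Seurat and mm10 appear in the submitters' processing notes, without a stated role. No cell annotation was used. In Python 3.11.15 with NumPy 2.4.6 and SciPy 1.17.1, UMIs were summed over members and over the others, divided by their totals (3630415 and 34534195 UMIs) and compared as ratios, with 95% conditional binomial intervals that cover counting error only. The ratio and interval code was tested on simulated data. Genes with at least 20 CPM over eligible barcodes counted as measured. Members and the 32 gene lists were chosen with earlier results of these data known. Genes were named by rule: the 12 highest and 8 lowest ratios at 50 CPM or more, the 4 farthest from 1 and the 2 most abundant of each list, and Cdkn1a, Lyz2, Apoe, Ccl3, Ccl4, Atg7, Cx3cr1 and Hspa5; further list members were added after their values were seen. Doublets were not called; leaving out the deepest 5% of barcodes was an alternative. Gene positions are from GENCODE M21 on GRCm38. RefSeq promoter windows were matched by symbol to 5313 of 6623 measured genes.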

Additional observations from a re-analysis of the deposited data

Results flagged for a closer look

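Ratios of 2 lists lay on opposite sides of 1 in the libraries of the genotypes, with counting intervals that left out 1 in both. Other lists on opposite sides, such as proteasome subunits (0.969 in the cKO and 1.01 in the control library), had an interval that held 1 in at least 1 library. The unfolded protein response list had a ratio of high-score barcodes over other eligible barcodes of 1.09 (1.06 to 1.12) in the cKO library and 0.871 (0.763 to 0.989) in the control library. The chemokine list had 1.10 (1.06 to 1.14) in the cKO library and 0.736 (0.601 to 0.894) in the control library. With a floor of 1000 UMIs the values were 1.08 and 0.950 for the first list and 1.08 and 0.939 for the second. The control values at 2000 UMIs rest on 51 barcodes, and neither difference was tested.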

How the results depend on the processing

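Over 15 alternatives the ER chaperone ratio stayed above 1, between 1.05 and 1.22. It was 1.21 for a top 5% and 1.11 for a top 20%, 1.13 with at least 1000 UMIs, 1.11 with barcodes thinned to 2000 UMIs, 1.22 without barcodes with 2 or more UMIs of other cell types, and 1.13, 1.05 and 1.11 with Fos, Fosb or Egr1 alone in the score. The cytosolic ratio lay between 0.972 and 1.01, above 1 in 5 of the 15, with 1.01 after thinning and with Fosb alone; its median log2 ratio turned to 0.0021 with median-ratio scaling, which shifts all genes by 0.02, and to 0.026 with Fos alone. The AP-1 and Egr ratio was 1.56 for a top 5%, 1.49 for a top 20% and after thinning, 1.50 with at least 4000 UMIs, 1.58 with at least 1000 UMIs, 1.51 within bands of depth, 1.55 as a mean over barcodes, with median-ratio scaling and without the deepest 5%, and 1.44, 1.37 and 1.45 with Fos, Fosb or Egr1 alone. Counts of genes past 1.5-fold moved most. Those higher were 41 for a top 5%, 45 after thinning, 162 without barcodes with UMIs of other cell types, 12 with Fosb alone and 1632 with no level filter. Those lower were 56, 60, 321 and 914 under the same settings except Fosb, and 14 and 15 with at least 4000 and 1000 UMIs, 13 as a mean over barcodes, 5 with Fos alone, 17 with Egr1 alone and 2 at 50 CPM or more. Leaving out barcodes with UMIs of other cell types removes 75.3% of members and 80.2% of the others. All 18 named genes that were followed kept their side of 1 in the 15 alternatives. The 1000-UMI floor in the control library, the omission of barcodes with 10 or more Ttr UMIs and the split by ER chaperones were chosen after seeing the data. No paired analysis was possible because each genotype has 1 single-cell library.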

Other observations

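The lowest ratios belonged to transcripts held by few barcodes. Ttr, transthyretin, which the choroid plexus makes in quantity, had 37 UMIs in members and 14186 in the others, and 8 barcodes, none of them members, held 85.3% of the Ttr UMIs of all eligible barcodes. Enpp2, autotaxin, another abundant choroid plexus transcript, had no UMI in members and 796 in the others, which is at least 27.9-fold lower in members against a floor of 3 UMIs over all members; the same 8 barcodes held 83.2% of its UMIs. Without barcodes with 10 or more Ttr UMIs the ER chaperone ratio was 1.16 and the AP-1 and Egr ratio 1.53.

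Among list genes too rare to count as measured, picked here after their values were seen, some high ratios rested largely on 1 barcode. All 21 Cxcl2 UMIs of members came from 1 barcode, against 1 UMI in the others. Of the 40 Dusp2 UMIs in members 20 came from 1 barcode. The 35 Egr2 UMIs came from 28 member barcodes and the 35 Egr3 UMIs from 21. On the low side, Il1b, the cytokine interleukin 1 beta, had 4 UMIs in members and 202 in the others (ratio 0.188, 0.0508 to 0.490). Cxcl10, an interferon-induced chemokine, had 15 and 616 UMIs (ratio 0.232), of which 1 barcode among the others held 267. Ccl5 had 18 and 530 UMIs (ratio 0.323). Srxn1, sulfiredoxin, a target of NRF2, had 11 and 257 UMIs (ratio 0.407, 0.201 to 0.741), with no more than 4 in any barcode.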
